A study of Homo sapiens with 2 samples.

Results

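RN7SK and the genes of its protein complex were examined for peaks of JUNB, which pairs with FOS and other proteins to form AP-1, in IMR-90 cells, a long-used line of human fibroblasts from lung. There were 8 genes, of 59094 RefSeq genes on chromosomes 1 to 22 and X: RN7SK, HEXIM1, HEXIM2, LARP7, MEPCE, CDK9, CCNT1 and CCNT2. They were chosen by a measured value, the strong etoposide peak inside RN7SK, and by membership of the complex, so the peaks at RN7SK are a description and carry no test. The peaks of these genes were all those with a summit within 50 kb of the gene span, 13 of 32550 untreated peaks and 11 of 25739 etoposide peaks.

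Binding was mapped by CUT&RUN, in which an antibody to JUNB directs a nuclease to its target and the released DNA is sequenced. The study had 1 library from IMR-90 cells with no treatment and 1 from IMR-90 cells treated with etoposide, an inhibitor of topoisomerase II that causes DNA double-strand breaks and brings fibroblasts into senescence. The dose and duration of treatment are not given in the sources used here, and no control library was used here. With 1 library per condition there was no spread between cultures to set a difference against, so no difference below was tested. A peak list holds no expression values, so the fibroblast label could not be checked against marker genes.

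The 7SK RNA is a short, abundant nuclear RNA transcribed by RNA polymerase III. It serves as a scaffold that holds the kinase complex P-TEFb, made of CDK9 and cyclin T1 or T2, in an inactive form. HEXIM1 and HEXIM2 bind the RNA and inhibit the kinase, LARP7 holds the 3′ end of the RNA, and MEPCE caps its 5′ end. Released P-TEFb phosphorylates RNA polymerase II and its pausing factors and lets paused polymerase move into the gene body, which makes the complex a store of elongation activity that cells draw on under stress, DNA damage included.

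The strength of a peak is given below as fragments, meaning how many sequenced pieces of DNA overlapped its summit, a number recovered from the deposited fold and p. Its local background is the number the peak caller set for the same place in the absence of binding. The median peak had 15 fragments untreated and 13 with etoposide, and the etoposide library had an estimated 0.836 times the depth of the untreated library. A peak counts as shared when a peak of the other library overlapped it by 1 bp or more, which held for 51.0% of all untreated and 64.8% of all etoposide peaks. Ranks are by the deposited -log10 q within a list, with 1 the strongest. Intervals in brackets are 95% exact Poisson intervals and cover counting error only.

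RN7SK lies on chromosome 6 (GRCh38, 52995620 to 52995951, 332 bp), between CILK1 and GSTA4. GSTA4 encodes a glutathione transferase, is on the minus strand and has its annotated start 336 bp from RN7SK. CILK1 is a kinase gene of primary cilia. The etoposide library had a peak at chr6:52995601-52995916 with its summit 148 bp inside RN7SK. It held 55 fragments (41.4 to 71.6) on a local background of 2.63, had a -log10 q of 47.1 and ranked 75. The peak covered most of the RNA gene, and its summit lay 484 bp upstream of the GSTA4 start. The RefSeq promoter window of GSTA4, from 250 bases before to 50 after its start, ended 66 bp short of the peak. Whether the peak belongs to RN7SK or to GSTA4 was not tested.

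The untreated library had no peak there. The nearest untreated summit was 45.9 kb away, and 55 etoposide fragments correspond to 65.8 at the untreated depth. Among the 4515 untreated peaks with a local background within 20% of 2.63, the weakest listed peak had 10 fragments and the median had 24. A lower untreated stack at RN7SK could not be seen in a list of peaks. The 2.63 is the background of the etoposide library, and a list of peaks does not give the untreated background at RN7SK. Over the whole untreated list the weakest peak had 5 fragments. The same limit applies below, where peaks of similar background are set beside LARP7, CCNT2 and RPPH1.

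A second etoposide peak without a counterpart lay inside GSTA4, 5.19 kb from RN7SK, with 13 fragments and rank 18784. At the far edge of the window, inside CILK1, both libraries had a peak at 1 place. The untreated peak, 46.1 kb from RN7SK, had 45 fragments (32.8 to 60.2) and ranked 1180, and its etoposide counterpart had 26, or 31.1 at the untreated depth, and ranked 4057. An untreated peak with 24 fragments beside it had no counterpart, although the nearest etoposide peak began 217 bp away. The etoposide library was thus high at RN7SK, where the untreated library had no listed peak. At the site in CILK1 it had fewer fragments, with counting intervals that overlapped.

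**Figure D1:**
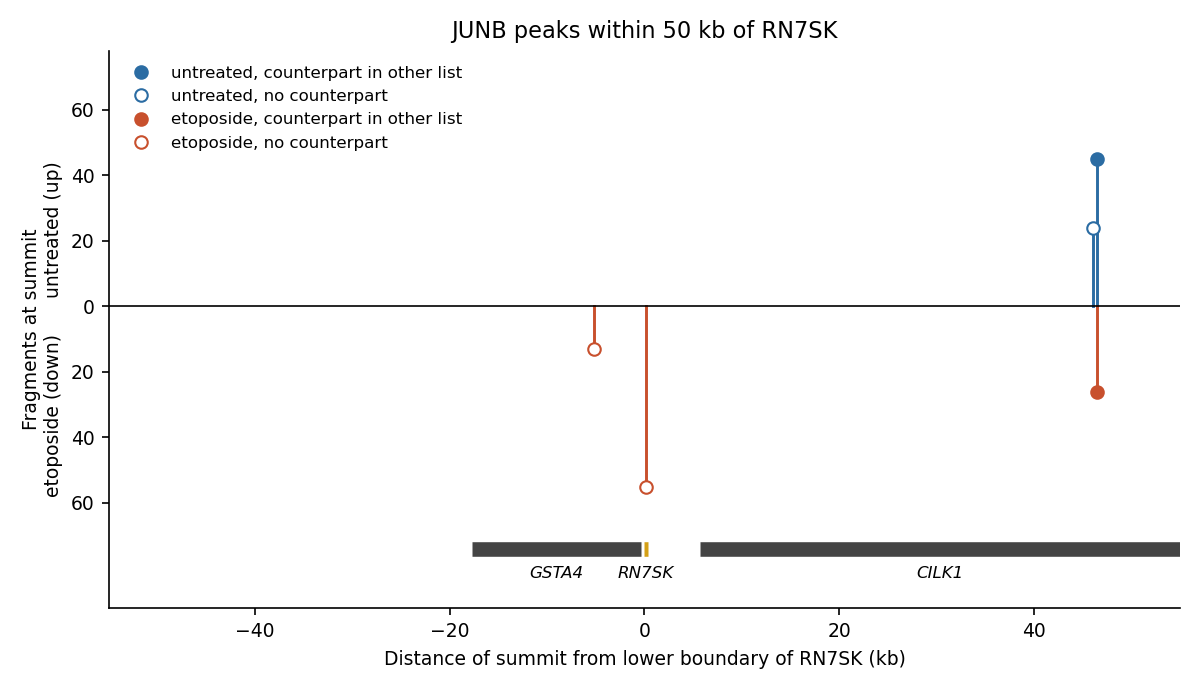
Fragments at the summit of each JUNB peak within 50 kb of RN7SK, plotted by distance in kb from its lower boundary, with the untreated library upward and the etoposide library downward. Filled points have a counterpart in the other list. The etoposide peak of 55 fragments inside RN7SK stands opposite an empty untreated side, while the site in CILK1 has 45 untreated and 26 etoposide fragments.

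The RN7SK peak was first by -log10 q among the 9063 etoposide peaks without an untreated counterpart. Such peaks had a median of 10 fragments, against 14 for etoposide peaks with a counterpart. Another 7 had 61 to 177 fragments, but on local backgrounds of 8.64 or more, and none of those 7 lay in an annotated gene. Of etoposide peaks with a counterpart, 113 had 55 fragments or more. The next unshared etoposide peaks in the order of -log10 q lay outside annotated genes, and are given here after their values had been seen. The second had 49 fragments on a local background of 2.44 and a -log10 q of 41.0, with the nearest untreated summit 7.11 kb away. The third had 47 fragments on 3.02 and a -log10 q of 34.3, but an untreated summit lay 0.334 kb from it. RN7SK was thus close to these in fragments and higher in -log10 q. The 5 unshared etoposide peaks inside a gene with the nearest -log10 q lay in KIAA0319L (-log10 q of 23.1, 23 fragments), LOC105377547 (22.6, 26 fragments), MAGI1 (22.2, 24 fragments), LOC105370504 (21.4, 35 fragments) and STK3 (21.3, 25 fragments). An untreated summit lay 0.263 kb from the peak in KIAA0319L, 0.352 kb in LOC105377547, 0.49 kb in STK3 and 1.72 kb in LOC105370504. In MAGI1 the nearest was 30.1 kb away, and for RN7SK it was 45.9 kb. In all, 13 peaks outside annotated genes stood between RN7SK and KIAA0319L in that order. These values were part of what chose RN7SK.

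**Figure D2:**
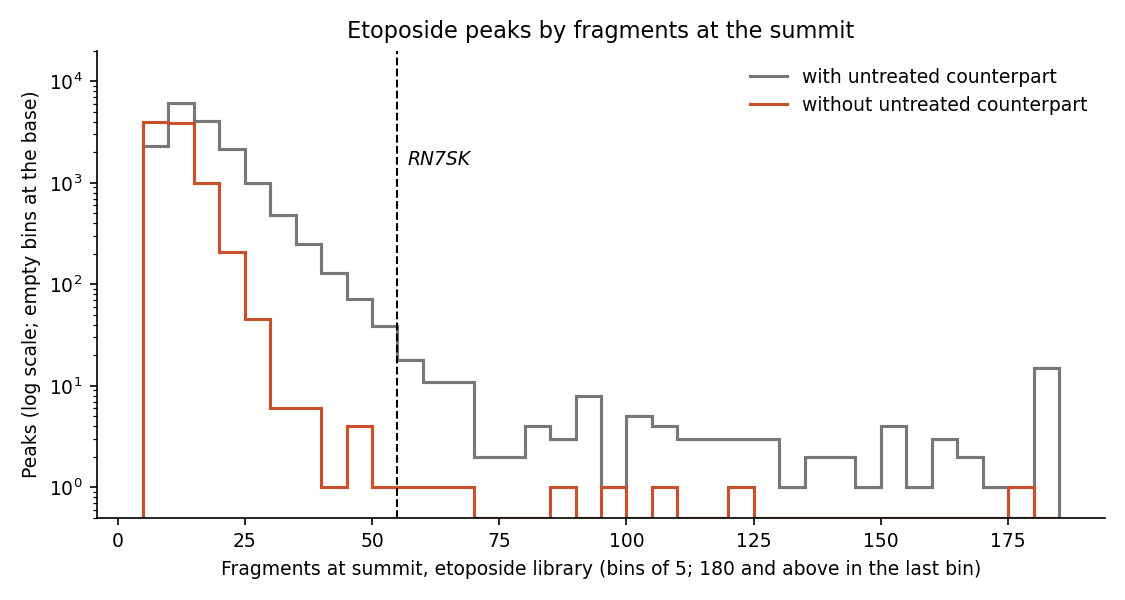
Number of etoposide peaks, on a log scale, by fragments at the summit in bins of 5, with and without an untreated counterpart. The dashed line marks the RN7SK peak at 55 fragments, where unshared peaks are few and most peaks have a counterpart.

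At the other 7 genes, which encode proteins, no peak had more than 21 fragments. RN7SK was chosen for its strong etoposide peak and these genes were not, so a contrast with RN7SK follows from that choice. Within 50 kb, 6 of the 8 genes had an untreated peak and 4 had an etoposide peak. Over all genes 60.8% had an untreated and 53.5% an etoposide summit within that distance. RN7SK, MEPCE, CDK9 and CCNT1 had peaks in both libraries, LARP7 and CCNT2 in the untreated library alone, and HEXIM1 and HEXIM2 in neither. The shares over all genes were 11.7% for the untreated library alone, 4.36% for the etoposide library alone and 34.8% for neither. Of the 7 protein-coding genes, 5 had a peak untreated and 3 with etoposide, where the shares of all protein-coding genes were 72.0% and 62.6%. Longer genes have wider windows, and the 8 spans run from 332 to 40521 bp.

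**Figure D3:**
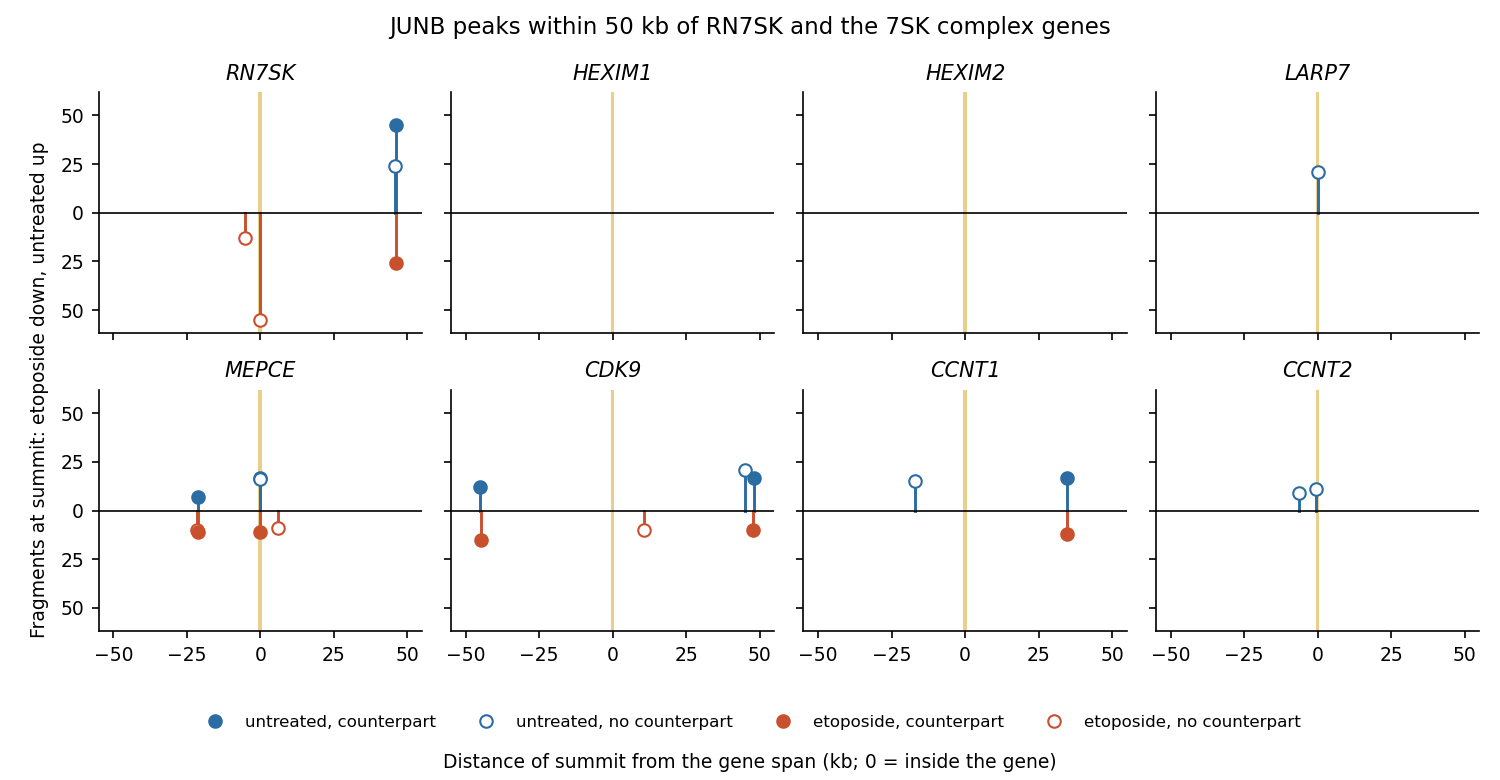
Fragments at the summit of every JUNB peak within 50 kb of each of the 8 genes, by distance in kb from the gene span (0 is inside the gene, orange line), untreated upward and etoposide downward, with filled points for peaks that have a counterpart. RN7SK has the highest point in either direction, LARP7 and CCNT2 have untreated points alone, and HEXIM1 and HEXIM2 are empty.

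LARP7, on chromosome 4 at 112637143 to 112657586, encodes the La-related protein that binds and stabilises 7SK RNA. In the untreated library a peak at chr4:112637119-112637701 covered the start of the gene, with its summit 160 bp inside. It had 21 fragments (13.0 to 32.1) on a local background of 1.23 and ranked 5268. The etoposide library had no peak within 50 kb, and its nearest summit was 86.1 kb away with 9 fragments. Among etoposide peaks on a similar local background the weakest had 7 fragments.

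The LARP7 peak reached over both promoter windows that RefSeq gives for the gene, each 300 bases from 250 before to 50 after a transcript start. They are shown because this was the strongest peak at the start of any of the 7 protein-coding genes. In window 1, chr4:112636893-112637192 on the plus strand (GRCh38.p14, RefSeq), capitals mark a match to TGACGTCA, the cyclic AMP response element that AP-1 and ATF dimers can bind. The peak covered the last 74 bases of this window, and the match, at 112636900 to 112636907, lay outside the peak. In window 2, chr4:112637252-112637551 on the plus strand, which the peak covered whole, capitals mark the 11 bases centred on the untreated summit.
LARP7 window 1: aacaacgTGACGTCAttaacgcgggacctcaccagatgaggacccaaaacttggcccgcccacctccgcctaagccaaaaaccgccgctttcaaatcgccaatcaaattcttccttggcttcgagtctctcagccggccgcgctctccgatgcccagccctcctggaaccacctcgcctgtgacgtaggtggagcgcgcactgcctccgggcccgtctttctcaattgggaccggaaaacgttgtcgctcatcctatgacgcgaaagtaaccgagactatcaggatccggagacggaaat
LARP7 window 2: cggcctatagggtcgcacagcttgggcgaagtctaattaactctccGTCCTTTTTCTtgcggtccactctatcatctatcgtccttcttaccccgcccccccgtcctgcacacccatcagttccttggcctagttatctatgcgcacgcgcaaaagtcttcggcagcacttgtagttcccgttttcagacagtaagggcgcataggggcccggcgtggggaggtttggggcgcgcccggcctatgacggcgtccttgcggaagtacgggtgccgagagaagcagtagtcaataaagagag

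MEPCE, on chromosome 7 at 100428790 to 100434118, encodes the enzyme that puts the methyl cap on 7SK RNA, and it was the gene with most peaks in both libraries together. The untreated library had 2 peaks inside the gene, at chr7:100428470-100429168 with 17 fragments (9.90 to 27.2) and at chr7:100429299-100429670 with 16 (9.15 to 26.0). The first was shared with an etoposide peak at chr7:100428952-100429166, which had 11 fragments (5.49 to 19.7). The second had no counterpart, but the nearest etoposide peak ended 132 bp before it. The intervals of the shared pair overlapped, and the 11 etoposide fragments correspond to 13.2 at the untreated depth.

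About 21 kb before MEPCE, inside ZCWPW1, the untreated library had 1 peak of 7 fragments and the etoposide library 2 peaks of 10 and 11. The stronger of these etoposide peaks was the counterpart, and the other lay 30 bp from the untreated peak. A last etoposide peak, 5.88 kb past MEPCE, had 9 fragments and no untreated summit within 10 kb. Counting intervals thus overlapped at both shared places of MEPCE, and 2 of its 3 unshared peaks lay at most 132 bp from a peak of the other library.

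MEPCE has 3 RefSeq promoter windows, and untreated peaks lay over all of them while the etoposide peak lay over none. Windows 1 and 3 are shown, since the shared untreated peak covered window 1 whole and the unshared one had its summit in window 3. Window 1 is chr7:100428540-100428839 and window 3 chr7:100429581-100429880, both on the plus strand (GRCh38.p14, RefSeq). Capitals in window 3 mark the 11 bases centred on the untreated summit, and window 1 has none because the summit lay past it.
MEPCE window 1: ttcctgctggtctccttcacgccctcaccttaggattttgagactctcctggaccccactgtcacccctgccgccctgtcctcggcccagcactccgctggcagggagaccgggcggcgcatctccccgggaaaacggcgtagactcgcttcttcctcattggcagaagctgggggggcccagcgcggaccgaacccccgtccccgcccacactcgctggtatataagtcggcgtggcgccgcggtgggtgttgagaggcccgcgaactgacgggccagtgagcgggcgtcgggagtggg
MEPCE window 3: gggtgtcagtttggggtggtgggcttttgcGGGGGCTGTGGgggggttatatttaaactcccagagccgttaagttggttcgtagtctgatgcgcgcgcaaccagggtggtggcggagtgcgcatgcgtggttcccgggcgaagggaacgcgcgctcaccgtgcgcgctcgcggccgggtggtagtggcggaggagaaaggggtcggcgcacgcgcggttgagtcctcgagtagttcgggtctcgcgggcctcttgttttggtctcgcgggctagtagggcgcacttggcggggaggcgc

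RefSeq gave 12 promoter windows for the 7 protein-coding genes and none for RN7SK. Untreated peaks overlapped 5 windows of 2 genes, LARP7 and MEPCE, and etoposide peaks overlapped 0. Among 15811 protein-coding genes with such a window, 13.1% had an untreated peak over one and 3.88% an etoposide peak. The AP-1 site, searched as TGANTCA on both strands, was in 0 of the 12 windows and in 7.68% of 34961 windows of the same length. TGACGTCA was in 1 of the 12, at LARP7, and in 1.85% of all. Of all windows under an untreated peak, 14.3% held TGANTCA and 4.40% held TGACGTCA, and under an etoposide peak 28.2% and 3.63%. Such a match describes the letters of these windows and shows no binding site.

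HEXIM1 and HEXIM2, the inhibitors, are neighbours on chromosome 17, at 45148475 to 45152099 and 45160174 to 45170040. Neither library had a summit within 50 kb of either gene. Just outside, at 55.3 kb from HEXIM1, lay an untreated peak of 15 fragments with an etoposide counterpart of 13. HEXIM1 and HEXIM2 share this surrounding, so they count as a single observation.

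CDK9, the kinase of P-TEFb, lies on chromosome 9 at 127786034 to 127790792. It had 3 peaks in each library, and none within 10 kb of the gene. The 2 shared places were in SH2D3C, an adaptor protein gene, and in ENG, the gene of the TGF-beta co-receptor endoglin. In SH2D3C the untreated peak had 12 fragments and the etoposide peak 15, and in ENG they had 17 and 10. A further untreated peak in ENG had 21 fragments and no counterpart. An etoposide peak 10.6 kb from CDK9, near FPGS, had 10 fragments and no untreated summit within 34 kb. The library with more fragments thus differed between the shared places, and the counting intervals overlapped at both.

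CCNT1 and CCNT2 encode the cyclins. CCNT1, on chromosome 12 at 48688458 to 48716707, had a shared peak 34.7 kb away in SPMIP11, whose summits were 2 bp apart in the libraries. It had 17 fragments (9.90 to 27.2) untreated and 12 (6.20 to 21.0) with etoposide. An untreated peak of 15 fragments in KANSL2, 16.9 kb from CCNT1, had no etoposide summit within 79 kb.

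CCNT2, on chromosome 2 at 134918822 to 134959342, had 2 untreated peaks, both in the antisense gene CCNT2-AS1, and 0 etoposide peaks. The one at chr2:134918311-134918538, 0.442 kb before CCNT2, had 11 fragments (5.49 to 19.7) and ranked 28317. The other, 6.38 kb away, had 9 fragments (4.12 to 17.1) and ranked 24273. Both were below the untreated median of 15, and etoposide peaks on a similar local background went down to 7 and 5 fragments.

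The limit of 50 kb decided some of these counts. The farthest peak inside it was an untreated one 48.0 kb from CDK9. The nearest outside were a shared pair 52.1 kb (untreated, 15 fragments) and 52.0 kb (etoposide, 12 fragments) from CCNT2, and an untreated peak of 12 fragments 52.7 kb from RN7SK. With a limit just above 52 kb, CCNT2 would have had a peak in both libraries.

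Taking the 24 peaks by list, untreated peaks had 7 to 45 fragments with a median of 17, and etoposide peaks 9 to 55 with a median of 11. Of these 6 in each list were shared, 46.2% of the untreated and 54.5% of the etoposide peaks, beside the 51.0% and 64.8% of the whole lists. Within 1 kb of the span, 3 of the 7 protein-coding genes had a summit untreated (LARP7, MEPCE and CCNT2) and 1 with etoposide (MEPCE), where 39.5% and 30.3% of all such genes did.

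RN7SK was then set beside other small RNA genes transcribed by RNA polymerase III, to see whether its peak had a parallel there. The list held 37 genes, RN7SK included, 17 of them 5S ribosomal RNA genes that lie in tandem. Within 1 kb, 10 had an untreated and 5 an etoposide summit, 27.0% and 13.5%, where 21.2% and 16.5% of all genes did. All genes include long ones, which have wider windows than these short genes. Of 1196 short small nucleolar RNA genes, 2.93% and 2.42% had a summit within 1 kb. In the untreated library 2 of the 10 peaks had the summit inside the RNA gene and 8 beside it, at 93 to 647 bp. In the etoposide library 4 of 5 had it inside. Without RN7SK, whose peak chose it, the other 36 genes had 4 etoposide peaks, 3 of them with the summit inside. These counts are too few to compare the libraries, and the difference was not tested. A wider set held 1898 genes shorter than 1 kb of chosen small RNA types, such as small nuclear, small nucleolar, ribosomal and transfer RNA. Of these, 0.158% had an untreated and 0.316% an etoposide summit inside. These shares are no separate background, since they count genes of the list too. The 6 genes with an etoposide summit inside include RN7SK, RPPH1, RN7SL1 and RN7SL2. The 3 with an untreated one include RN7SL1 and RN7SL2.

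The 4 genes of the list with an etoposide summit inside were RN7SK, RPPH1, RN7SL1 and RN7SL2. RPPH1 encodes the RNA of RNase P, which trims transfer RNA precursors. It lies on chromosome 14 at 20343071 to 20343411 and had an etoposide peak of 23 fragments (14.6 to 34.5) with no counterpart, at rank 1289. The nearest untreated summit was 112 kb away, and untreated peaks on a similar local background went down to 6 fragments.

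RN7SL1 and RN7SL2 encode near-identical copies of the RNA of the signal recognition particle, also on chromosome 14. RN7SL1 had 28 fragments (18.6 to 40.5) at rank 1654 in the untreated library and 101 (82.3 to 123) at rank 6 in the etoposide library. RN7SL2 had 26 untreated and 30 (20.2 to 42.8) with etoposide. Counting intervals were apart for RN7SL1 and overlapped for RN7SL2. Reads from such copies, as from RN7SK and its copies, can be placed at more than 1 locus, and how the authors placed them is not given in the sources used here.

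The vault and Y RNA genes had more peaks in the untreated library. VTRNA1-1, a vault RNA gene, had a shared peak about 0.2 kb beside it with 31 fragments (21.1 to 44.0) untreated and 13 (6.92 to 22.2) with etoposide, intervals that overlap. VTRNA1-3 had an untreated peak of 19 fragments with no counterpart. The remaining peaks, named here after their values had been seen, were of the untreated library alone. They lay beside VTRNA1-2 (12 fragments), VTRNA2-1 (14), RNY1 (15), RNY5 (13), RNU6ATAC (10) and RN7SL3 (9). Neither library had a summit within 1 kb of RMRP, of the 5 U6 genes in the list or of the 17 5S genes.

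**Figure D4:**
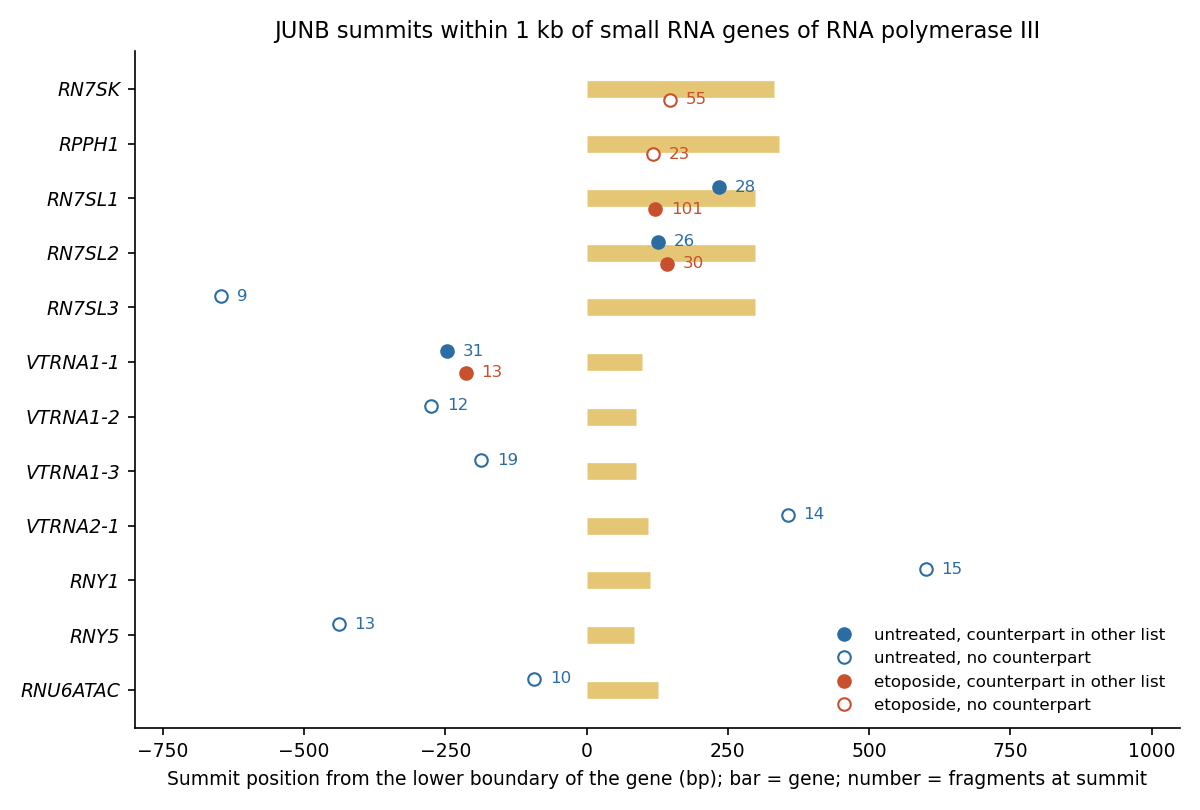
Position of JUNB summits within 1 kb of small RNA genes of RNA polymerase III, in bp from the lower boundary of each gene (bar), with the fragments at each summit as a number and filled points for shared peaks. Etoposide summits lie on the bars of RN7SK, RPPH1, RN7SL1 and RN7SL2, and most untreated summits lie beside the bars.

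The annotation holds 292 copies named RN7SKP, which derive from RN7SK. Within 1 kb, 6 copies had an untreated and 4 an etoposide summit, 2.05% and 1.37%, where 2.25% and 1.93% of all pseudogenes did. The strongest untreated peak at a copy had 23 fragments, beside RN7SKP192, and its etoposide counterpart had 12. RN7SKP241 had an untreated peak of 22 fragments alone, and RN7SKP2 an etoposide peak of 19 alone. RN7SKP11 had shared peaks, of 18 untreated and 11 etoposide fragments inside the copy and of 22 and 16 beside it. No copy had an etoposide peak near the 55 fragments of RN7SK, and the highest was 19. RN7SK was chosen for that peak, so this contrast follows from the choice. It also depends on how reads from RN7SK and its copies were placed, which is not known here.

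Among 30 other genes of P-TEFb control and promoter-proximal pausing, 23 had an untreated and 20 an etoposide summit within 50 kb, 76.7% and 66.7%, beside 72.0% and 62.6% of all protein-coding genes. Within 1 kb the counts were 15 and 9 of 30, beside 39.5% and 30.3% of all protein-coding genes. ELL, an elongation factor that joins P-TEFb in the super elongation complex, had a shared peak 0.213 kb outside its span with 29 untreated and 17 etoposide fragments. Inside MLLT3, a reader subunit of that complex, the strongest untreated peak had 28 fragments and overlapped 2 etoposide peaks, of 13 and 16. Its strongest etoposide peak, of 26 fragments, was shared with an untreated peak of 23. The other shared places had 20 untreated and 23 etoposide fragments, 22 in both, 16 and 10, and 14 and 11. The unshared peaks within 1 kb of MLLT3 were all of the untreated library, with at most 16 fragments. Inside AFF1, a scaffold of the complex, the strongest place had 27 and 21. CDK7, the kinase of TFIIH, had a shared peak of 19 and 14 and 2 etoposide peaks without a counterpart, of 13 fragments 0.119 kb outside the gene and of 7 inside. ELL2 had 23 untreated fragments 9 bp outside its span and no etoposide summit within 12 kb. HNRNPA1, an RNA-binding protein that associates with 7SK RNA free of P-TEFb, had 1 untreated peak alone, of 16 fragments. SYNCRIP, another RNA-binding protein, had unshared peaks of 16 untreated and 11 etoposide fragments. TRIM28, named after its value had been seen, was the 1 gene with an etoposide summit alone within 1 kb, at 12 fragments.

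The 16 genes for RNA polymerase III subunits and factors of its promoters had summits within 1 kb at 7 genes untreated and 6 with etoposide, 43.8% and 37.5%, beside 39.5% and 30.3% of protein-coding genes. POLR3A, the largest subunit, had the strongest peaks, at 27 untreated and 25 etoposide fragments in 1 shared place. ZNF143, a factor of small nuclear RNA promoters, had a shared peak of 12 and 13, and BDP1, a subunit of TFIIIB, one of 10 and 13. ZNF143 also had unshared peaks of 14 untreated and 13 etoposide fragments, with summits 428 bp apart. BDP1 and POLR3G each had an unshared etoposide peak of 7 fragments. POLR3G had a shared peak of 11 and 8, and POLR3B had unshared peaks in both lists, at most 13 and 9. The summit of that etoposide peak of 9 lay 311 bp from an untreated summit of 10 fragments. POLR3GL had untreated peaks alone, at most 14 fragments. Within 50 kb the counts were 12 and 13 of 16, beside 72.0% and 62.6%.

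**Figure D5:**
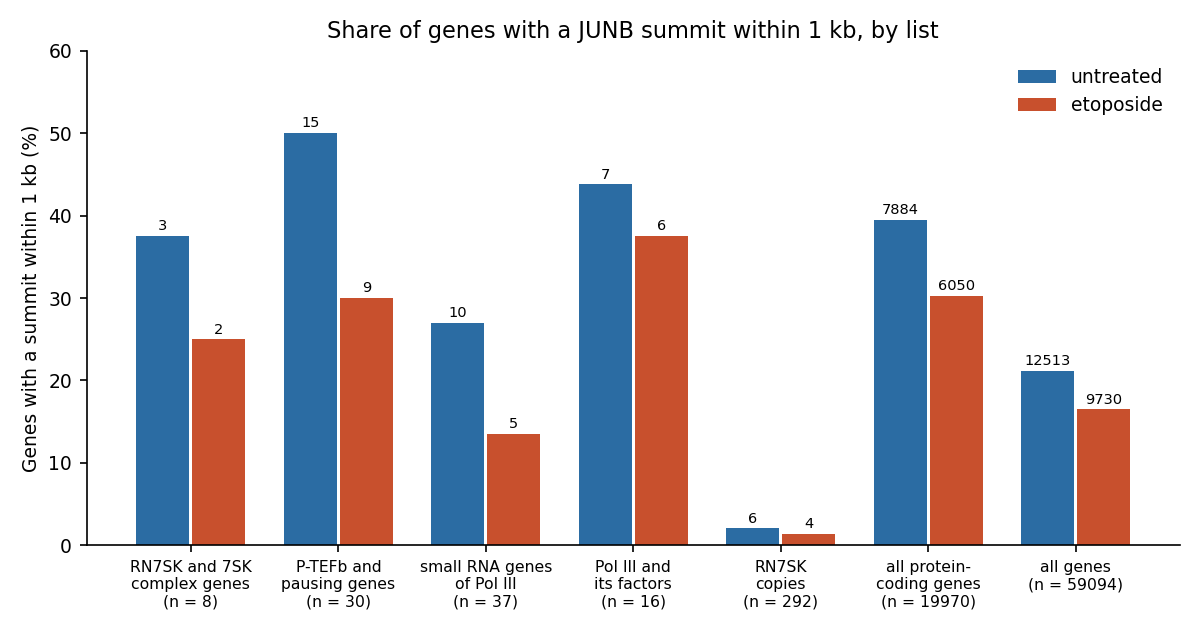
Percent of genes with a JUNB summit within 1 kb in the untreated and the etoposide library, for RN7SK and the 7SK complex genes, the other lists, all protein-coding genes and all genes, with the number of genes above each bar. The untreated bar is the higher one in each list and over all genes, and the RN7SK copies have the lowest bars. RN7SK, chosen for its etoposide peak, is counted in the etoposide bars of its own list, of the small RNA genes and of all genes.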

How the data were processed

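CUT&RUN for JUNB gave 1 library per condition, so groups held 1 sample each, taken from the treatment label. The deposited files are 1 peak list per library, not pooled. The submitters' processing notes name Bowtie2 and MACS2, without versions or settings, and the builds hg38 and mm10. Contig names in the files are those of GRCh38. In the authors' lists, the deposited fold is the ratio of summit signal to local background, the deposited significance values are -log10 p and -log10 q, the deposited score is 10 times -log10 q as a whole number, and the summit is counted in bp from the peak start.

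Peaks on chromosomes 1 to 22 and X were kept. Fragments k and local background b were solved from fold = (k + 1)/(b + 1), with a pseudocount of 1, and the Poisson upper tail, and a whole k matched the significance to within 0.001 for 100.0% of the peaks. Simulated data were used to test the recovery. Relative depth is the ratio of lowest backgrounds, 0.782, over that of smallest widths, 0.936, and assumes that these show genome coverage and fragment length. Depth in reads is unknown.

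Gene spans, promoter windows and sequences came from RefSeq tables of GRCh38.p14. All 8 genes matched by symbol, and 7 had a promoter window. Counts were set beside the same count over all genes, and no test was run. Named in the text are the 8 genes, genes at their peaks, the 5 unshared etoposide peaks in genes nearest to RN7SK in -log10 q, and up to 6 genes a list by fragments. The members and lists were chosen with earlier results of these data known. The count of short RNA genes with a summit inside was chosen after the data were seen. Alternatives were windows of 10 and 100 kb, -log10 q of at least 5, the 10000 strongest peaks, and other criteria of sharing. Python 3.11.15, numpy 2.4.6, pandas 2.3.3 and scipy 1.17.1 were used.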

Additional observations from a re-analysis of the deposited data

How the results depend on the processing

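The counts within 50 kb (13 untreated and 11 etoposide peaks, 6 and 4 genes, 6 shared peaks in each list) followed the window and the strength asked for. Within 10 kb there were 5 untreated and 4 etoposide peaks at 3 and 2 genes, with 1 shared peak in each list. Within 100 kb there were 29 and 25 peaks, with 16 shared in each list, and all 8 genes had a peak in both libraries. Among the 10000 strongest peaks of each list there were 5 and 3, at 4 and 2 genes, with 1 shared in each. At -log10 q of at least 5 there were 12 and 11, and the same numbers of genes. Overlap of at least 50% of both peaks left 2 shared in each list, and summits within 1 kb gave 8 and 7. In these counts the untreated library had more peaks in all, from a longer list (32550 against 25739), and the shared peaks were equal in number except under summits within 1 kb. The RN7SK peak had no untreated summit within 1 kb, and ranked 122 by fold and 115 by fragments where it ranked 75 by -log10 q. The other alternatives moved no count by over 1.5 times.

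No paired analysis was possible because each condition had 1 library. Depth limits the weak peaks: those of 5 to 10 fragments are near the lowest listed, so an unshared weak peak is not shown to be absent from the other library.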

Other observations

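Short RNA genes outside the lists above were looked at after the pattern at RN7SK, RPPH1 and RN7SL1 had been seen, and nothing was tested. Among 153 short genes annotated as small nuclear RNA, RN7SK left out, 1 had an etoposide summit inside. It was RNU2-2, a U2 spliceosomal RNA gene, whose peak had 10 fragments, no counterpart and rank 19469. No untreated summit lay inside any of the 153. Among 1196 small nucleolar RNA genes, 1 had an etoposide summit inside (SNORD168, 10 fragments, no counterpart) and 0 an untreated one. SCARNA20, a Cajal body RNA gene, was the 1 further gene with an untreated summit inside, at 9 fragments.

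Transfer RNA genes, also transcribed by RNA polymerase III, had no summit inside in either library. Within 1 kb, 47 of 443 had an untreated and 18 an etoposide summit, 10.6% and 4.06%, beside 21.2% and 16.5% of all genes. All genes include long ones, which have wider windows, so those shares are not of like length. Of the 1196 small nucleolar RNA genes, 2.93% and 2.42% had such a summit. Of the 154 small nuclear RNA genes, RN7SK included, 6.49% and 3.9% did. They lie in clusters, so 1 peak can count for several. All 4 vault RNA genes and 2 of 4 Y RNA genes had an untreated summit within 1 kb, against 1 and 0 with etoposide, numbers too small to set beside the shares of all genes.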
